A study of Salvia miltiorrhiza with 5 samples.

Results

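The flower small RNA library of *Salvia miltiorrhiza*, a medicinal plant of the mint family, was compared with the root, stem and leaf libraries of the same study. Reads were summed per distinct sequence of the deposited miRNA table, and sequences with at least 10 reads over the 4 libraries were described. These were 95 of 241 sequences, and they came from 200 of 650 table entries. The 95 sequences held 99.98% of the table reads of flower. Of these sequences 87 were found in flower and 8 were not. The most abundant sequence outside the minimum had 9.78 reads over the 4 libraries, and the least abundant inside it had 10.3. All 4 tissues came from field-grown plants of 8 months at florescence, and each tissue was sequenced as 1 library. No test between tissues was made, since single libraries carry no spread between plants, and every difference below is one between single libraries. The labels name neither the floral organs nor the stage of the flowers, nor the number of plants behind a library. A table of small RNAs holds no marker genes of floral tissue, so the tissue labels were not checked against markers.

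A plant microRNA (miRNA) is cut by a DICER-LIKE enzyme from the 5p or 3p arm of an RNA hairpin, and guides an ARGONAUTE protein to mRNAs with a nearly complementary site, which are mostly cleaved. The bases near its 5′ end, the seed, weigh most in this pairing. In flowers, miR172 acts on AP2-like factors of flowering time and organ identity, miR156 on the SPL factors that promote flowering, and miR159, miR164, miR166, miR167 and miR319 on factors that shape anthers, organ boundaries and petals. These roles are known mainly from *Arabidopsis* and rice.

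The sequences on which the comparison turned are printed here 5′ to 3′ as the table gives them, with T for U. Capitals mark the seed, bases 2 to 8. The first letters of a name give the species of the most similar miRBase entry, L and R give bases added or removed at the 5′ and 3′ ends, and ss gives substitutions against that entry. Names that begin with PC are candidates predicted from hairpins on expressed sequence tags (ESTs) of the plant. The set holds the forms that differed most between flower and the other libraries, forms of the same family set side by side, and the most abundant sequence of all 4 libraries.
cpa-miR390a: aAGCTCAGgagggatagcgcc
gma-miR393a_R+1_1ss21CT: tCCAAAGGgatcgcattgattt
gma-miR393a_1ss21CT: tCCAAAGGgatcgcattgatt
tcc-miR172d_1ss1AT: tGAATCCTgatgatgctgcat
nta-miR172d: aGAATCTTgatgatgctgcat
osa-miR171b: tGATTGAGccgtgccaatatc
lus-miR171h_L-1R+1: tGAGCCGAaccaatatcactc
lus-miR169b_R-1: tAGCCAAGgatgacttgcct
osa-miR169n_R-1: tAGCCAAGaatgacttgcct
rco-miR156f: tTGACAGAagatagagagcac
lus-miR156b_1ss12TG: tTGACAGAagagagagagcac
stu-miR156d-3p_R-1_2ss1GA10GA: aCTCTCTAtacttctgtcatc
mtr-miR399k_1ss13TA: tGCCAAAGaagaattgccctg
PC-3p-59794_23: cTTCATCCgggcgtcgattga
PC-5p-376893_3: cGTGGCAAtatctgcagaaga
bdi-miR166a-3p: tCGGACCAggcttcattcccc

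The table held 494824 reads for flower, 499434 for root, 380306 for stem and 238148 for leaf. They made up 12.2% of the clean small RNA reads of flower, 5.64% of root, 5.77% of stem and 4.43% of leaf. bdi-miR166a-3p, which acts on the class III HD-ZIP factors of organ polarity and meristems, had 448913 reads in flower, 362860 in root, 301237 in stem and 189423 in leaf. It was thus 90.7% of the table reads in flower, against 72.7% in root, 79.2% in stem and 79.5% in leaf. Without this sequence, the table held 1.13% of the clean reads in flower, against 1.54% in root, 1.20% in stem and 0.906% in leaf.

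The authors' normalized count is the number of reads multiplied by 1 factor per library, 1.41 for flower, 0.547 for root, 0.715 for stem and 1.90 for leaf. Each sequence below is given by its reads, then by the ratio of its normalized count in flower to the mean of root, stem and leaf. Intervals are 95% intervals from counting error alone, and do not cover the spread between plants or between library preparations. By normalized count, bdi-miR166a-3p stood at 632467 in flower, 198594 in root, 215295 in stem and 360210 in leaf. The ratio was 2.45 (2.44 to 2.46). As a share of table reads the ratio was 1.18, so the size of this difference depended on the scale.

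A sequence was called higher in flower where its ratio was at least 2, and lower where it was at most 1/2 or where flower had no reads. By this rule 32 of the 95 sequences (33.7%) were higher and 22 (23.2%) were lower, and 41 lay between. Flower had the highest normalized count of the 4 libraries for 35 sequences (36.8%), against 23 for root, 10 for stem and 27 for leaf. These shares are the background for each count below. The ratio was at least 4 for 21 sequences and at least 8 for 12. Of the 22 lower sequences, 8 had no reads in flower, and for 6 of these a floor of 3 reads per library did not place flower at 1/2 of the mean or below. Fewer than 30 reads over the 4 libraries lay behind 14 of the higher and 11 of the lower sequences.

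The median log2 ratio over all 95 sequences was 0.35 by normalized count, and -0.69 by share of table reads, a shift of -1.05, with sequences without reads on 1 side taken at their bound. By share of table reads 20 sequences were higher and 46 lower. Higher sequences were 59.3% of the called ones by normalized count, 30.3% by share of table reads, 62.3% by reads relative to all clean reads, 68.4% by share without the most abundant sequence, and 50% by share without the 10 most abundant. The shifts of the median under the last 2 of these scales were 0.21 and -0.35. Under all 5 scales, 20 sequences were higher and 18 lower. Among the 18 are the 8 without flower reads, and among the 20 are 2 with reads in flower alone. Calls of these sequences were set by their 0 reads and could not change with the scale. Every ratio below is by normalized count unless another scale is named.

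**Figure D1:**
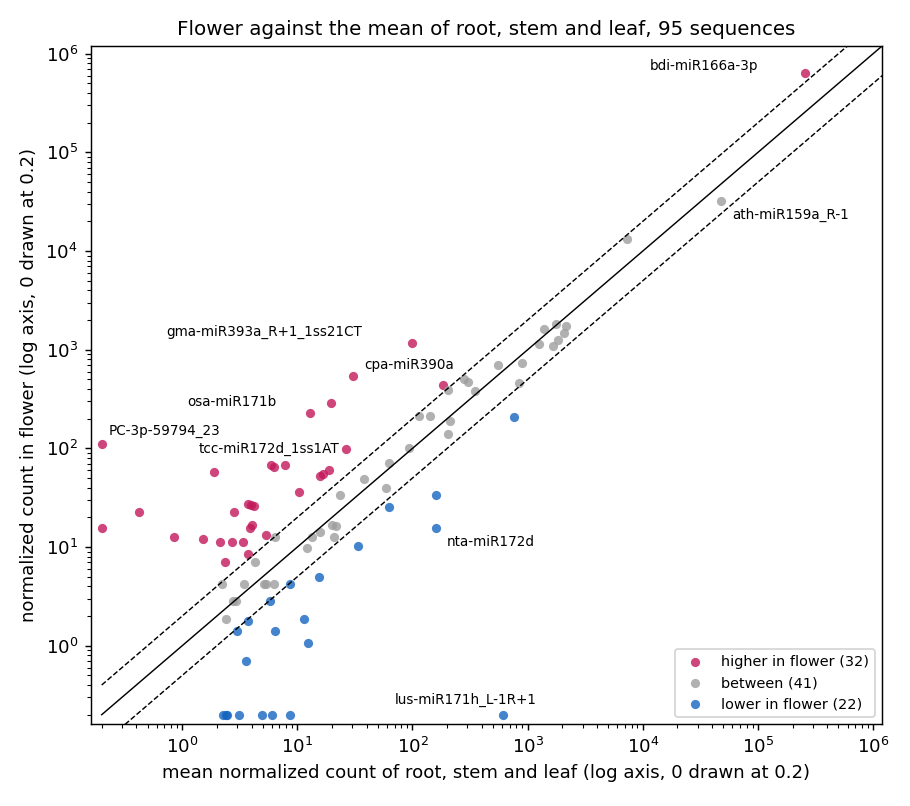
Each point is 1 of the 95 sequences, with its mean normalized count in root, stem and leaf on the x axis and its normalized count in flower on the y axis, both on log axes with counts of 0 drawn at 0.2. The solid line marks equality and the dashed lines a 2-fold difference. The 32 higher sequences lie above the upper dashed line, and the 8 sequences without flower reads lie along the bottom.

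Among families that act on auxin signalling, 4 of 7 sequences were higher, 2 lower and 1 between, with a median log2 ratio of 3.56 against 0.35 over all 95 sequences. By share of table reads 4 were higher and 2 lower, with a median of 2.56. The higher ones were the 2 arms of miR390 and the 2 lengths of miR393, from 2 of the 4 families. The median by normalized count was the value of 1 of these miR393 forms. cpa-miR390a, which starts the production of the tasiRNAs that act on ARF3 and ARF4, had 386 reads in flower, 33.5 in root, 65.2 in stem and 14.3 in leaf. Its normalized count was 543 in flower, against 18.3 in root, 46.6 in stem and 27.3 in leaf, a ratio of 17.7 (14.0 to 22.3). By share of table reads the ratio was 7.83. Flower was thus above each of the other libraries, and 11.7 times the next one, stem. Its opposite arm, aly-miR390a-3p_R-1, had 9 reads in flower, 2 in root, 2 in stem and none in leaf, a ratio of 15.1 (4.61 to 49.3), which was 23.2 without stem and 10.1 without leaf. The 3p arm was 2.28% of the miR390 reads in flower (1.05 to 4.29), and 3.42% over root, stem and leaf (0.939 to 8.52), so the arms stood in a like proportion within counting error.

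miR393 acts on the TIR1/AFB auxin receptors. Its 22-nt form gma-miR393a_R+1_1ss21CT had 833 reads in flower, 8 in root, 79.5 in stem and 125 in leaf. The ratio was 11.8 (10.02 to 13.8) and 6.73 by share of table reads. The 21-nt form gma-miR393a_1ss21CT, which lacks the last base, had 203 reads in flower, 5 in root, 22.5 in stem and 21 in leaf, a ratio of 14.6 (10.3 to 20.5). Flower was highest for both forms and root lowest, and leaf carried most of the mean. Without leaf the ratios were 38.3 for the 22-nt form and 30.3 for the 21-nt form. The 22-nt form was 80.4% of the reads of both in flower (77.9 to 82.8), against 61.5% in root, 77.9% in stem and 85.6% in leaf. Only the root share, from 13 reads, lay under 70%, and its interval (31.6 to 86.1) held the flower share.

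The other auxin families did not share this direction. nta-miR160a, which acts on ARF10, ARF16 and ARF17, was lower, with 3.5 reads in flower, 30 in root, 20 in stem and 8 in leaf and a ratio of 0.32 (0.11 to 0.96). dpr-miR167a, which acts on ARF6 and ARF8 in flower maturation, had 1162 reads in flower, 964 in root, 389 in stem and 1759 in leaf. Its ratio was 1.18 (1.10 to 1.27). By normalized count flower stood at 1636, under leaf alone with 3345, and without leaf the ratio was 4.06. ptc-miR167f-3p was lower, from 1.25 reads in flower, 1.5 in root, 6.5 in stem and 3 in leaf, with an interval of the ratio (0.07 to 3.09) that included 1, and lay between without stem (0.54) or without leaf (0.64).

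Of the 13 sequences from the families that time phase change and flowering, miR156, miR172 and miR529, 5 were higher, 5 lower and 3 between, with a median log2 ratio of 0.45. On the scale of table shares 3 were higher and 6 lower, with a median of -0.74. miR172 held 2 mature forms of opposite direction. tcc-miR172d_1ss1AT had 47.7 reads in flower, 18 in root, 11 in stem and none in leaf. Its ratio was 11.4 (7.15 to 18.1), 17.1 without root and 7.58 without leaf. nta-miR172d had 11 reads in flower, 303.5 in root, 314 in stem and 47 in leaf, a ratio of 0.10 (0.05 to 0.18). Flower was the highest library for one form and the lowest for the other. Counted from 1 at the 5′ end of nta-miR172d, tcc-miR172d_1ss1AT carries A1T and T7C, the second of which lies in the seed.

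The share of one form in the reads of both does not depend on the scaling of a library. tcc-miR172d_1ss1AT was 81.3% of both miR172 forms in flower (68.9 to 90.3), against 5.60% in root (3.35 to 8.70), 3.39% in stem (1.70 to 5.98) and 0% in leaf (up to 7.55). The flower interval did not overlap that of any other library. This pair, like the other pairs of forms and arms set side by side, was chosen after its values were seen. The 5p arms of miR172 had no reads in flower. mtr-miR172c-5p_R-1 had 7 reads in root, 12 in stem and 3 in leaf, and mtr-miR172c-5p had 3 in root, 8 in stem and 1 in leaf. Taking 3 reads for flower, their upper bounds of 0.70 and 1.37 did not place flower below 1/2. Summed over all entries, miR172 had 60.3 reads in flower, 332 in root, 348 in stem and 51 in leaf, and was lower in flower with a ratio of 0.48 (0.37 to 0.63).

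In the miR156 family, 4 of 8 sequences were higher, 1 was lower and 3 lay between. The most abundant form, rco-miR156f, had 312 reads in flower, 229 in root, 265 in stem and 123 in leaf, a ratio of 2.40 (2.08 to 2.78), but 1.13 by share of table reads. lus-miR156b_1ss12TG, which differs from rco-miR156f by T12G, had 46.5 reads in flower, 10 in root, 8 in stem and 4 in leaf, a ratio of 10.5 (5.96 to 18.4). It was 12.97% of the reads of both forms in flower (9.67 to 16.9), against 4.18% in root (2.02 to 7.56), 2.93% in stem (1.27 to 5.69) and 3.15% in leaf (0.865 to 7.87). lus-miR156a, with 279 reads in flower, 125 in root, 194 in stem and 214 in leaf, lay just under the limit at 1.92 and reached 3.79 without leaf. Its normalized count was 392 in flower and 407 in leaf. bdi-miR156b-5p_L+1_1ss20AC had 136 reads in flower, 111 in root, 324 in stem and 183 in leaf, a ratio of 0.90. The forms of this family thus spanned both sides of the mean. mdm-miR156a_L+3_1ss22AC was lower at 0.08 (0.01 to 0.84), from 0.75 reads in flower, 1.5 in root, 17.3 in stem and 12.8 in leaf, and at 0.16 without leaf.

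rco-miR156f and the 3p sequence stu-miR156d-3p_R-1_2ss1GA10GA lie on the 2 arms of a hairpin that the authors placed on the EST CV162823, positions 193 to 280 of the plus strand. It is shown because both arms were sequenced in the plant itself. Capitals mark the arms, and both matched the EST without a difference. The authors placed lus-miR156b_1ss12TG on the same 5p arm of this EST, from which it differs by T12G.
miR156 hairpin: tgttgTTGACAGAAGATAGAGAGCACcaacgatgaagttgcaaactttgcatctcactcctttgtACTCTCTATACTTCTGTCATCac
The 3p arm had 16 reads in flower, 1 in root, 1 in stem and none in leaf, which was the largest measured ratio of all 95 sequences, 53.6 (12.2 to 236). It rested on 2 reads outside flower, and was 82.4 without stem and 35.7 without leaf. Without lus-miR156b_1ss12TG, the 3p arm was 4.88% of its own reads and those of rco-miR156f in flower (2.81 to 7.80). This share was 0.435% in root (up to 2.40), 0.376% in stem (up to 2.08) and 0% in leaf (up to 2.96). The interval of flower overlapped that of leaf, which had 123 reads of both sequences, and not those of root and stem. A second 3p form, stu-miR156d-3p_R-1_1ss10GT, had 8 reads in flower, 3 in root, 4 in stem and 3 in leaf, a ratio of 3.31 (1.23 to 8.96), and 5.01 without leaf. bdi-miR529-5p, of a family that shares the SPL targets of miR156 in grasses and mosses, had 1 read in flower, 2 in root, 4 in stem and 8 in leaf. It was called lower at 0.22, with an interval (0.03 to 1.70) that included 1, and lay between at 0.71 without leaf.

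Among families of organ and meristem development, 8 of 30 sequences were higher, 8 lower and 14 between, with a median log2 ratio of -0.02. Shares of table reads gave 6 higher and 18 lower, with a median of -1.22, and by normalized count without root 14 were higher and 7 lower. miR171, of a family that acts on GRAS factors, again had forms of opposite direction, here with different seeds. osa-miR171b had 161 reads in flower, 11.5 in root, 20.7 in stem and 9.33 in leaf. Its ratio was 17.5 (11.95 to 25.6), and flower was 12.8 times the next library, leaf. lus-miR171h_L-1R+1 had no reads in flower, 3319 in root, 0.5 in stem and 4 in leaf. With 3 reads taken for flower, the mean of the other 3 was at least 144-fold higher than flower. This difference rested on root, since without root the upper bound for flower was 1.06 times the mean. osa-miR171b was all of the reads of both forms in flower (at least 97.7%), against 0.345% in root (0.176 to 0.609), 97.6% in stem (80.0 to 100) and 70% in leaf (39.7 to 91.2). The flower interval overlapped that of stem, and not those of root and leaf. ptc-miR171j_L-1R+1_1ss10TC, another form, was found in root alone with 12.5 reads, and its bound of 1.85 did not place flower below 1/2.

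**Figure D2:**
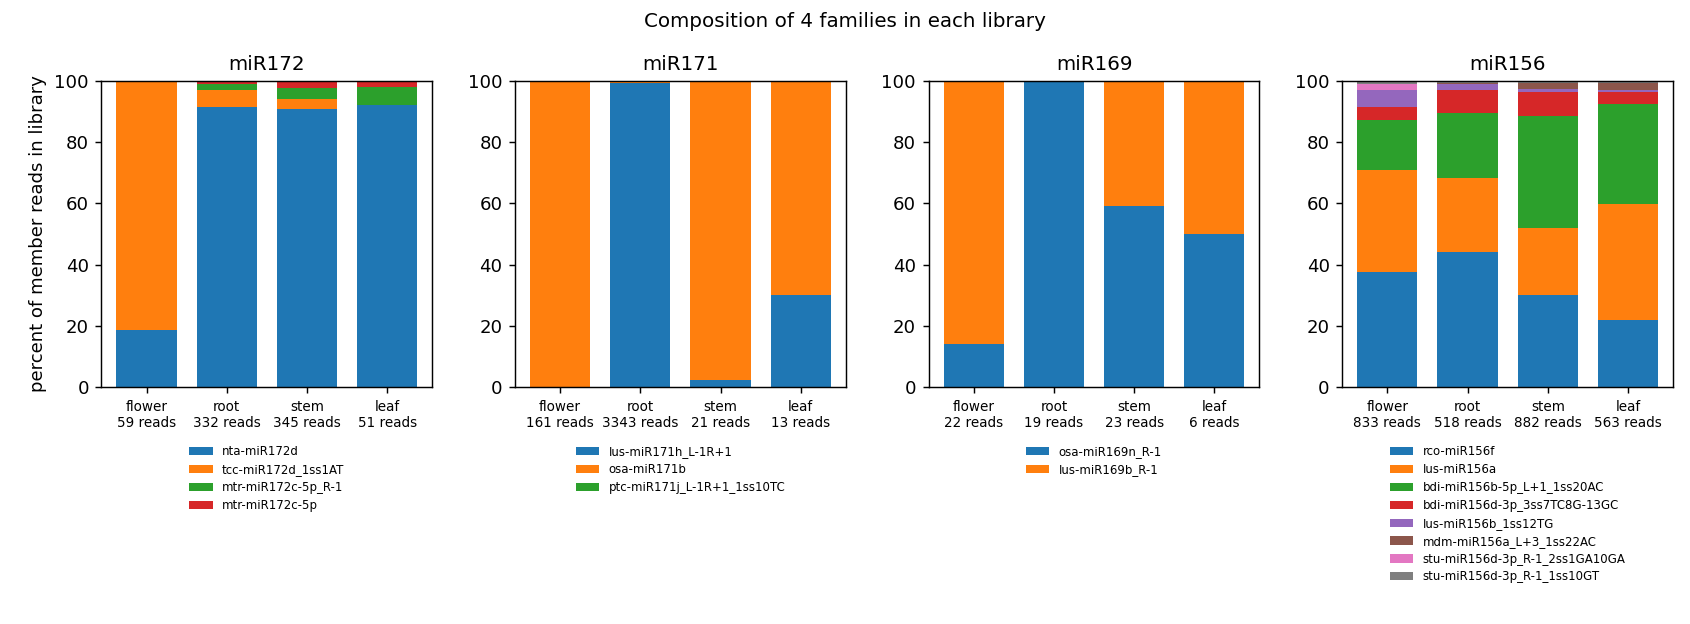
Stacked bars give, for miR172, miR171, miR169 and miR156, the percent of the reads of the member sequences of a family held by each sequence, in flower, root, stem and leaf, with the number of reads under each bar. tcc-miR172d_1ss1AT takes 81.3% of the miR172 bar in flower and 5.43% in root. osa-miR171b takes 100% of the miR171 bar in flower and 0.344% in root.

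In the miR166 family, 6 of 8 sequences were higher, none lower and 2 between. Besides bdi-miR166a-3p, 5 of the 6 forms with added bases at the 5′ end were higher, and ptc-miR166n_L+4R-2 lay between at 0.78, from 1.33 reads in flower, 4.17 in root, 4.25 in stem and 1 in leaf. ptc-miR166p_L+2R-2 had 47.7 reads in flower, 1 in root, 15 in stem and 6.33 in leaf, a ratio of 8.64 (5.003 to 14.9). The ratios of the other 4 were 3.51 for mes-miR166i_L+3R-2, 4.18 for ptc-miR166a_L+5R-2, 7.18 for ppt-miR166j_L+1R-1 and 8.04 for ppt-miR166a_L+3R-2. Without leaf, ppt-miR166j_L+1R-1 stood at 25.7 and ppt-miR166a_L+3R-2 at 15.5. By share of table reads, bdi-miR166a-3p and mes-miR166i_L+3R-2 fell between, at log2 ratios of 0.23 and 0.75. On that scale ptc-miR166n_L+4R-2 was lower at -1.55, and the remaining higher forms stayed higher at 1.005 to 2.09. The 5 higher forms were rare, with 8 to 47.7 reads in flower. Of the forms with added bases, 3 extend bdi-miR166a-3p itself, and 2 of these were higher. Together these 3 were 0.00567% of their own reads and those of bdi-miR166a-3p in flower (0.00368 to 0.00834). The share was 0.00167% in root (0.000613 to 0.00361), 0.00429% in stem (0.00228 to 0.00734) and 0.00312% in leaf (0.00114 to 0.00683). The flower interval overlapped those of stem and leaf, and not that of root. The 5p arm bdi-miR166e-5p had 360 reads in flower, 693 in root, 246 in stem and 148 in leaf, a ratio of 1.82, and 2.22 without root. It was 0.0801% of the reads of both main arms in flower (0.0721 to 0.0889), against 0.191% in root (0.177 to 0.205), 0.0816% in stem and 0.0781% in leaf. Root stood apart from the other 3 in this proportion, and flower did not.

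The most abundant sequences of 4 other developmental families lay between. ath-miR159a_R-1, which acts on GAMYB-like factors of anthers and was the second most abundant sequence in flower, had 22909 reads in flower, 76343 in root, 48292 in stem and 35977 in leaf, a ratio of 0.67 (0.66 to 0.68). By share of table reads it was 0.32, so it passed the limit on that scale. vvi-miR319b_R-1, which acts on TCP factors of leaf and petal growth, had 781 reads in flower, 5446 in root, 2659 in stem and 71.7 in leaf. Its ratio was 0.66, with leaf far under the other 3 libraries. It was 1.08 without root and 0.45 without leaf, so its place rested on which library was in the mean. csi-miR164, which acts on the NAC factors of organ boundaries, had 899 reads in flower, and its normalized count was 1267 in flower, 5223 in root, 122 in stem and 175 in leaf. Its ratio of 0.69 (0.64 to 0.74) stood beside a large spread, since flower was below root and above stem and leaf, and the ratio was 8.53 without root, 0.47 without stem and 0.47 without leaf. csi-miR396a_1ss21GT, which acts on growth-regulating factors, had 1222 reads in flower, 2485 in root, 4148 in stem and 1146 in leaf, a ratio of 0.79 (0.75 to 0.84).

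Minor forms of these families did not all follow the main one. mtr-miR396b-3p_L-1_1ss12CT, of the 3p arm, had 146 reads in flower, 654 in root, 1146 in stem and 591 in leaf, and was lower at 0.27 (0.23 to 0.32). It was 8.61% of its own reads and those of the 2 main 5p forms in flower (7.32 to 10.1), against 14.97% in root, 19.0% in stem and 24.4% in leaf, and the flower interval lay under those of all 3. aqc-miR396b_R+3 had no reads in flower or leaf, 9.07 in root and 13.7 in stem, with a bound of 0.86. lus-miR159b_R+1_1ss19CT, with 7.33 reads in flower, 22.7 in root, 31 in stem and 34.7 in leaf, was lower at 0.31 (0.14 to 0.66), but lay between at 0.60 without leaf. ath-miR159c_R+2_1ss20CT, with 1.33 reads in flower, 7.17 in root, 19 in stem and 8.67 in leaf, was lower at 0.17 (0.03 to 0.94). The interval of lus-miR159b_R+1_1ss19CT ended at that of the main miR159 form, and the interval of ath-miR159c_R+2_1ss20CT held it. aly-miR319a-5p_L-1R-1_1ss19TG had no reads in flower or leaf, 12 in root and 1 in stem, with a bound of 1.74. osa-miR319a-3p.2-3p_R+1 was called lower at 0.20 from 0.5 reads in flower and 9.75 elsewhere, and at 0.34 without leaf. aly-miR164b-3p was higher, with 8.5 reads in flower, none in root, 5 in stem and 0.5 in leaf, a ratio of 7.94 (2.57 to 24.5), and 25.2 without stem. ath-miR394a, which acts on the F-box gene LCR in shoot stem cells, had 151 reads in flower, 335 in root, 110 in stem and 41 in leaf. It lay between at 1.88 (1.56 to 2.27), and reached 2.72 without root.

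**Figure D3:**
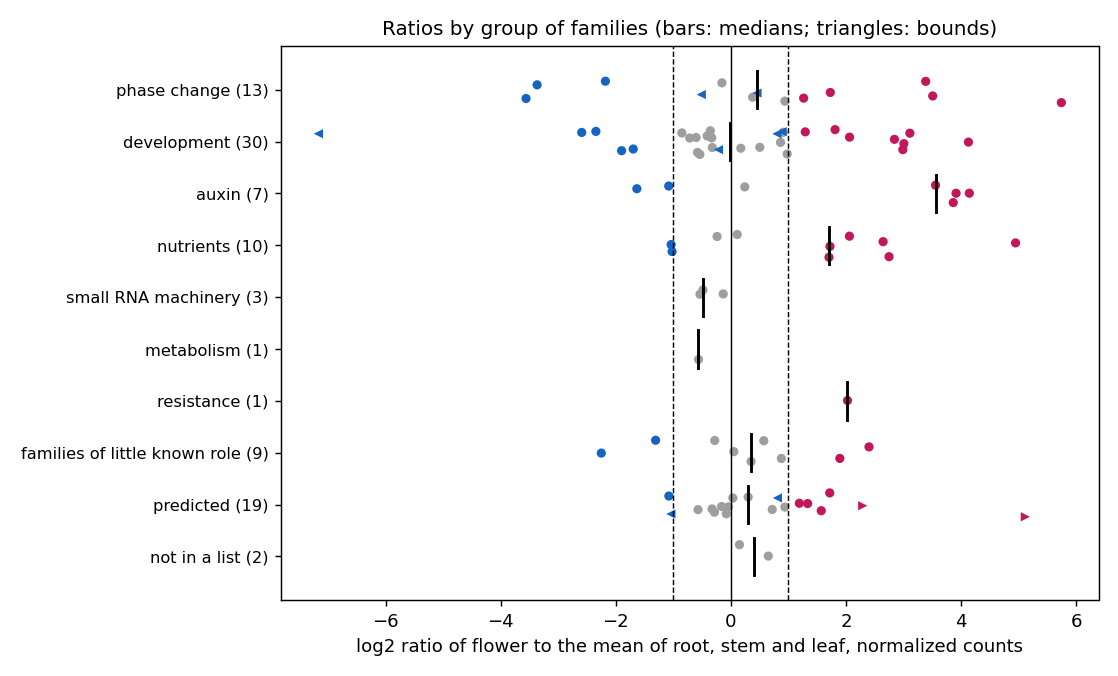
Each point is the log2 ratio of flower to the mean of root, stem and leaf for 1 of the 95 sequences, by group of families, with the number of sequences in brackets. Colours mark higher, between and lower, bars mark medians, triangles mark bounds where 1 side had no reads, and dashed lines mark a 2-fold difference. The auxin group has the median of 3.56, and the development group lies around 0.

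Among families tied to nutrients, 6 of 10 sequences were higher, 2 lower and 2 between, with a median log2 ratio of 1.71. Taken as shares of table reads 4 were higher and 2 lower, with a median of 0.94, and by normalized count without leaf 9 were higher and 1 lower. mtr-miR399k_1ss13TA, of the family that acts on PHO2 in phosphate homeostasis, had 41 reads in flower, 2 in root, 1 in stem and 2 in leaf. Its ratio was 30.9 (10.8 to 88.6), and 63.9 without leaf. gma-miR399a_1ss8GT had 19.0 reads in flower, 4.03 in root, 4.70 in stem and 3.35 in leaf, a ratio of 6.72 (3.05 to 14.8). Both forms of miR399 were highest in flower. csi-miR827_1ss9CT, which acts on phosphate transport and NLA, had 37 reads in flower, 8 in root, 7 in stem and 20 in leaf, a ratio of 3.30 (2.03 to 5.37). By normalized count flower was 1.37 times leaf, 52.1 against 38.0, and the ratio was 11.1 without leaf.

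Families tied to copper differed in how flower stood against leaf. mdm-miR397a_1ss20AC, which acts on laccases, had 12 reads in flower, 7 in root, 1 in stem and 4 in leaf, a ratio of 4.17 (1.74 to 10), and 7.44 without leaf. aqc-miR398b_L+2R-2, which acts on copper/zinc superoxide dismutases, had 43.3 reads in flower, 8.67 in root, 3.67 in stem and 25.7 in leaf, a ratio of 3.26 (2.07 to 5.14), and 16.6 without leaf. ppe-miR398b_R-1_1ss2GA had 12 reads in flower, 3 in root, 7 in stem and 28 in leaf, a ratio of 0.85, and 5.09 without leaf. aly-miR408-3p_L-1R+1, which acts on plantacyanin and laccases, had 71.3 reads in flower, 42.8 in root, 15.5 in stem and 129 in leaf, a ratio of 1.08, and 5.83 without leaf. In miR397, miR398, miR408 and miR827, leaf had the next highest or the highest normalized count.

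miR169 acts on NF-YA factors and is known from nitrogen and drought responses. lus-miR169b_R-1 had 18.5 reads in flower, none in root, 9.5 in stem and 3 in leaf, a ratio of 6.26 (2.90 to 13.5). osa-miR169n_R-1 had 3 reads in flower, 18.6 in root, 13.8 in stem and 3 in leaf, a ratio of 0.49 (0.15 to 1.62), which moved between the limits without root (0.54) or without stem (0.53). Counted from the 5′ end of osa-miR169n_R-1, lus-miR169b_R-1 differs by A9G, which lies next to the seed. It was 86.0% of both forms in flower (64.4 to 97.0), against 0% in root (up to 18.03), 40.7% in stem (21.1 to 62.8) and 50% in leaf (11.8 to 88.2). The flower interval did not overlap those of root and stem, and overlapped that of leaf, which had 6 reads of both. cpa-miR395a_L+1, which acts on ATP sulfurylases, had 2 reads in flower, none in root, 3 in stem and 8 in leaf. It was called lower at 0.49 (0.11 to 2.23), but higher at 2.63 without leaf.

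Sequences of the small RNA machinery lay between. gma-miR168a, which acts on ARGONAUTE1, had 806 reads in flower, 1393 in root, 1538 in stem and 986 in leaf, a ratio of 0.91 (0.84 to 0.99). har-miR403a, which acts on ARGONAUTE2, had 1057 reads in flower, 2374 in root, 3913 in stem and 1135 in leaf, a ratio of 0.71 (0.67 to 0.76). By share of table reads all 3 sequences of these families were lower, gma-miR168a at 0.45 and har-miR403a at 0.32. aly-miR858-5p_L-1R+1_1ss5GA, which acts on MYB factors of phenylpropanoid metabolism, had 28 reads in flower, 146 in root, 38 in stem and 36 in leaf, a ratio of 0.67 (0.45 to 1.01). csi-miR482a-3p_L-2_1ss5CA, of a family that acts on NBS-LRR resistance genes, was higher with 11 reads in flower, 5 in root, 7 in stem and 2 in leaf, a ratio of 4.03 (1.74 to 9.32).

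Of the 9 sequences from families of little known role, 2 were higher, 2 lower and 5 between. The share of table reads put 1 higher and 4 lower. han-miR3630-3p_L-2_1ss22TC had 70 reads in flower, 35 in root, 58 in stem and 10 in leaf, a ratio of 3.72 (2.70 to 5.11). osa-miR5077_1ss5GA had 8 reads in flower, 3 in root, 4 in stem and 1 in leaf, a ratio of 5.28. hbr-miR6173_L+1 was lower, with 24 reads in flower, 27 in root, 174 in stem and 181 in leaf, a ratio of 0.21 (0.14 to 0.32) that was 0.49 without leaf. nta-miR477a was lower, with 18 reads in flower, 160 in root, 98.8 in stem and 16 in leaf, a ratio of 0.40 (0.25 to 0.65) that was 0.502 without root. By normalized count hbr-miR6173_L+1 stood at 33.8 in flower, above 14.8 in root, and nta-miR477a at 25.4 in flower, near 30.4 in leaf. ppt-miR894_R+1, the next most abundant sequence in flower, had 9464 reads in flower, 21298 in root, 6921 in stem and 2717 in leaf, a ratio of 1.84, and 2.64 without root. Ratios of 1.04 for peu-miR2916_R-4_1ss6AG, 1.28 for ptc-miR6478_R+2_1ss21GA and 0.82 for rgl-miR5139_L-1 lay between, and osa-miR5072_L-4_1ss13GA at 1.49 reached 2.54 without root. The 2 sequences of families in no list, gma-miR6300_R+5 at 1.57 and tcc-miR530b_R+1 at 1.11, also lay between.

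Of 39 predicted sequences, 19 had at least 10 reads, and of these 6 were higher, 3 lower and 10 between, with a median log2 ratio of 0.30. As shares of table reads 2 were higher and 10 lower, with a median of -0.55, and by normalized count without stem 3 were higher and 4 lower. PC-3p-59794_23 had 78 reads in flower and none in root, stem or leaf. PC-5p-376893_3 had 11 reads in flower and none in the other 3. With a floor of 3 reads in each other library, flower was 34.7-fold higher for the 3p sequence and 4.899-fold higher for the 5p sequence. Without leaf these bounds were 58.1 and 8.19. They take the flower reads as counted and leave out their counting error. The normalized count of the 5p sequence in flower was 15.5 (7.74 to 27.7). Both sequences were placed by the authors on the same hairpin of the EST CV167603, positions 43 to 281. The 5p sequence matched the EST at every base, and the 3p sequence differed from it by A8C, counted from its own 5′ end. No other sequence with at least 10 reads was found in flower alone.

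PC-3p-240808_5 was also higher, with 39 reads from flower, 2 from root, 26 from stem and 16 from leaf, a ratio of 3.29 (2.08 to 5.19), and 5.59 without leaf. PC-5p-994633_2 and PC-3p-479939_3, from 1 hairpin on the EST CV163994, were called higher at 2.97 and 2.28, but their normalized counts of 7.04 and 8.45 in flower lay under those of 7.12 and 10.4 in root. PC-3p-72144_18 was called higher at 2.52, while its normalized count was 13.4 in flower and 15.2 in leaf. Both sequences of the EST CV163994 lay between without stem or without leaf, as PC-3p-72144_18 did without root or without stem. In the other direction, PC-3p-479939_3 stood at 23.7 without root and PC-3p-72144_18 at 37.45 without leaf. For these 3 the call came from a mean that libraries with few or no reads pulled down. PC-5p-468508_3 had no reads in flower or leaf, 36 in root and 9 in stem. Its upper bound for flower was 0.49, and 1.31 without root. PC-3p-294250_4, on the same hairpin of the EST CV172499, had 10 reads in flower, 42 in root, 10 in stem and 9 in leaf, a ratio of 0.89, so only the 5p arm was at 0 in flower. PC-3p-673758_2 had no reads in flower or leaf, 8 in root and 4 in stem, with a bound of 1.75, and PC-3p-296841_4 was called lower at 0.47 from 1 read in flower, 15 in root and 1 in stem, and reached 3.94 without root.

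**Figure D4:**
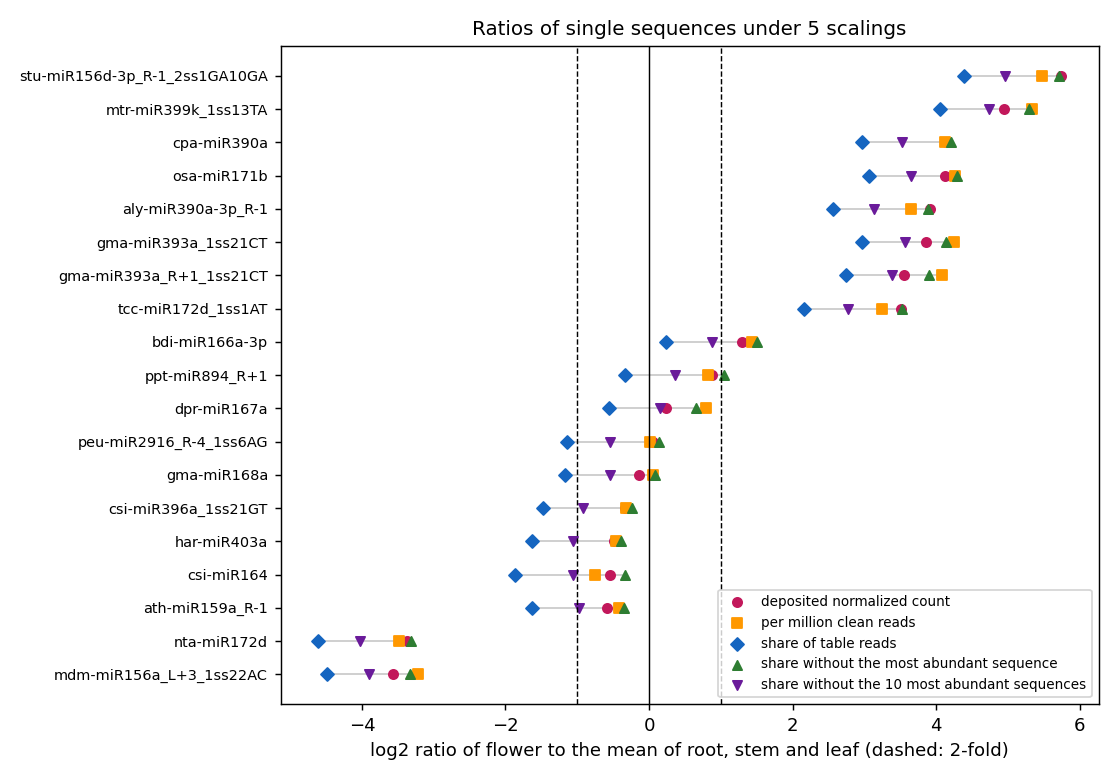
Log2 ratios of flower to the mean of root, stem and leaf for the sequences with the largest and smallest ratios and those with most reads in flower, each under 5 scalings. Sequences ranked by a bound are left out. The 8 sequences at the top, from tcc-miR172d_1ss1AT upward, stay right of the 2-fold line under every scaling and the 2 at the bottom stay left of it. ath-miR159a_R-1, csi-miR164, har-miR403a, csi-miR396a_1ss21GT, gma-miR168a and peu-miR2916_R-4_1ss6AG cross the lower line by share of table reads.

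Length, first base and arm were compared across the 95 sequences, since the choice of sequences did not use them. Of the 32 higher sequences 19 (59.4%) were 21 nt long, against 15 of the 41 between (36.6%) and 11 of the 22 lower (50%). Of the 6 sequences of 22 nt, 4 were higher and 2 lower. Without bdi-miR166a-3p, sequences of 22 nt were 1.94% of the flower reads, against 0.0708% in root, 0.169% in stem and 0.350% in leaf, and most of these reads in flower were gma-miR393a_R+1_1ss21CT. Sequences of 20 nt, mostly ath-miR159a_R-1, were 53.3% in flower, 60.9% in root, 66.6% in stem and 76.0% in leaf. The 3p arm held 20 of the 32 higher, 19 of the 41 between and 12 of the 22 lower sequences, and 5 of the 95 were placed on both arms. A first base of T, which many plant miRNAs share, was found in 17 of 32 higher, 24 of 41 between and 10 of 22 lower sequences. Over the 95 sequences, the rank correlation (Spearman's rho) of flower was 0.56 with root, 0.71 with stem and 0.75 with leaf, while that of stem with leaf was 0.84. These values share the same libraries and are given as a description.

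The degradome, which records the 5′ ends of cleaved transcripts, was sequenced from 1 library of mixed tissues, so a cleaved target cannot be placed in flower. Of 82 miRNA and target pairs in the deposited degradome table, 43 belonged to 9 of the 95 sequences. Among the higher sequences, han-miR3630-3p_L-2_1ss22TC alone had pairs, 4 with 16 reads at the site. Among the lower ones, aly-miR319a-5p_L-1R-1_1ss19TG alone had pairs, 4 with 53 to 128 reads. None of the printed sequences had a pair in that table.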

How the data were processed

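Small RNA from root, stem, leaf and flower was sequenced as 1 library each, on a HiSeq 2000 per the labels. The authors kept reads of 18 to 25 nt, discarded those of other RNA classes, and annotated the remainder against miRBase 20.0 and ESTs with ACGT101-miR 4.2. The reads in the deposited table are expected counts, since a read that matched several entries was divided among them. The deposited normalized values are a signal made by the authors by multiplying these reads by 1 factor per library, and how the factors were set is not given in the sources used here. The degradome table holds read counts at cleavage sites that the authors found with CleaveLand 3.0 and ACGT301-DGE 1.0.

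Reads were summed per distinct sequence. Sequences with 10 or more reads over the 4 libraries were kept, and flower was divided by the mean of root, stem and leaf. Reads have exact 95% Poisson intervals, shares Clopper-Pearson intervals, and ratios an interval from the Poisson variance on the log scale. Where 1 side had 0 reads, 3 reads per library were taken, and the other side was taken as counted, without its interval. Depth in clean reads is from the study. There was no replicate and no test. Sequences were named where they had 1 of the 10 largest or 10 smallest ratios, 1 of the 10 highest counts in flower, the most reads of a listed family, or 3 or more reads in flower alone, with forms of the same family or hairpin beside them. In the ranking of ratios, sequences with 0 reads on 1 side came first, whatever their bound. Other predicted sequences and families in no list were named after their values were seen. The sequences, family lists and rules were chosen with earlier results of these data known. 6 lines of the table were not analysed here. The scripts, in Python 3.11.15 (pandas 2.3.3, numpy 2.4.6, matplotlib 3.10.9, scipy 1.17.1), were tested on simulated data.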

Additional observations from a re-analysis of the deposited data

How the results depend on the processing

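With 1 library per tissue, counting error is the only error that could be computed, and sequences of few reads had wide intervals. By share of table reads 20 sequences were higher and 46 lower, against 39 and 18 where bdi-miR166a-3p was left out of the shares. With a minimum of 3 reads, which keeps 143 sequences, 49 were higher and 38 lower, and with a minimum of 100 reads, which keeps 38, 7 were higher, 5 lower and 11 highest in flower. Summed over 37 families, 10 were higher, 7 lower and 14 highest in flower. Where the counting interval also had to exclude 1, 11 were lower, and with a limit of 4-fold 21 were higher and 14 lower. The other alternatives left each count within 1.5 times its value. Of the 49 sequences named by rule, only those called higher or lower by a measured ratio were checked for a change of direction. Among them cpa-miR395a_L+1 alone changed. Its log2 ratio was 0.39 against the median of root, stem and leaf and 1.39 without leaf, where 8 of its 13 reads lay. Sequences that lay between also crossed a ratio of 1. csi-miR164 went from 0.69 to 8.53 without root and 7.24 against the median, and dpr-miR167a from 1.18 to 0.90 without root. Outside these 49, PC-3p-296841_4 went from lower at a ratio of 0.47 to higher at 3.94 without root. No paired analysis was possible because each tissue had 1 library.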

Other observations

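Below the minimum of 10 reads, 17 more sequences were found in flower and in no other library, so 19 of the 241 sequences were found in flower alone, with 104 reads together. Apart from PC-3p-59794_23 and PC-5p-376893_3 none of them had 3 reads, and 15 had 1 read or less. egu-miR172d_R-1_1ss7TC, with 1.67 reads, carries the same seed as tcc-miR172d_1ss1AT. bdi-miR529-3p, which is the opposite arm of a family whose 5p arm was called lower in flower, had 1 read.

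The share of the 3p arm of miR168 was lower in flower than in root and stem. mtr-miR168c-3p was 10.99% of the reads of both arms in flower (9.03 to 13.2), against 15.9% in root (14.2 to 17.7), 16% in stem (14.4 to 17.8) and 12.04% in leaf (10.2 to 14.1), so the flower interval overlapped that of leaf and not those of root and stem. Among the 5p forms of miR396, the form that ends in T, csi-miR396a_1ss21GT, was 78.8% of its reads and those of gma-miR396a-5p in flower (76.7 to 80.9), against 66.9% in root (65.3 to 68.4), 84.9% in stem (83.9 to 85.9) and 62.6% in leaf (60.4 to 64.8). The flower interval overlapped none of the other 3. Both comparisons were chosen after their values were seen, and each library was sequenced once.

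Sequences that end in CCA, as mature tRNAs do, were 5 of the 95. They were 2.05% of the table reads in flower, 4.82% in root, 2.19% in stem and 1.28% in leaf, and without bdi-miR166a-3p 22.2% in flower, 17.7% in root, 10.6% in stem and 6.25% in leaf. ppt-miR894_R+1 alone held 9464 of their 10146 reads in flower, and most of their reads in root, stem and leaf. These shares were thus mostly those of 1 sequence. Of the 5, osa-miR5077_1ss5GA was higher in flower and nta-miR160a, the form that acts on ARF10, ARF16 and ARF17, was lower. Whether any of the 5 came from a tRNA was not tested.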
